A study of Mus musculus with 8 samples.

Results

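The RNA of 47 genes that build, restrain or resemble the secreted metalloproteases of the extracellular matrix was measured in the parietal bone, a flat bone of the skull vault, of C57BL6J mouse pups. The genes are those of a table of 27133 gene symbols that start with Mmp, Adamts, Adamtsl or Timp followed by a digit, together with Reck and Bsg. Of 53 such genes, 6 were left out (Mmp8, Mmp9, Mmp25, Adamts2, Adamts3 and Adamts14). That leaves 20 matrix metalloproteases (MMPs), 16 ADAMTS proteases, 5 ADAMTS-like genes, 4 tissue inhibitors of metalloproteases (TIMPs) and the 2 membrane regulators Reck and Bsg. Pups received either an isotype control antibody or an antibody that blocks CSF1R, the receptor through which CSF1 and IL-34 keep monocytes, macrophages and osteoclasts alive. Both groups were dosed over the skull on postnatal days 2, 4 and 6 and were perfused on day 9, when the bone was taken. Each group had 4 libraries, named here by the number in their titles (isotype 2, 3, 4 and 5, and anti-CSF1R 7, 8, 9 and 10). The labels name no transgene and do not say whether each library is 1 pup or a pool, so the p-values speak only of the spread among libraries.

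MMPs are zinc proteases made as inactive proenzymes and switched on when their propeptide is removed. Together they cut collagens, gelatin and other matrix proteins, and in bone they act at the surfaces where matrix is laid down and removed. ADAMTS proteases carry thrombospondin repeats and include the enzymes that cut the large aggregating proteoglycans. ADAMTS-like proteins have the repeats without the protease, and TIMPs block the active site of the enzymes.

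Levels are CPM, the counts of a gene scaled to a common library size with TMM factors. Libraries held 57.5 M to 69.1 M counts, and the detection floor, set at a count of 3, equalled 0.0396 to 0.0573 CPM. This covers counting error only. Isotype 3 and 4 stood apart from the other 6 libraries. Across genes, their Spearman correlation with those 6 was 0.916 to 0.943, against 0.986 to 0.997 among the 6. GC-rich transcripts had relatively high counts in this pair (Spearman correlation of GC content with the deviation from the median library 0.649 and 0.640, against -0.371 to -0.0281 elsewhere). Fold changes are therefore given with and without this pair. Csf1r stood at 238 to 549 CPM across isotype and 39.4 to 64.4 CPM across anti-CSF1R libraries. The bone identity of the samples was clear, since 10 osteoblast markers summed to 165608 to 304010 CPM and 6 osteocyte markers to 3025 to 6161 CPM.

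No member passed the test between the groups on all 8 libraries. Of 47 members, 41 had enough counts to be tested, and 0 had an edgeR adjusted p under 0.05, against 0.846% of all 17028 genes tested. DESeq2, which called 4.56% of all genes, and limma-voom, which called 0.681%, also called 0 members. An unadjusted p under 0.05 was found for 9 members with edgeR (22%, against 17.9% of all genes), 13 with DESeq2 (against 24.9% of all genes) and 14 with limma-voom (against 19.3%). Without isotype 3 and 4, which leaves 2 isotype libraries, 1 of 42 tested members passed, against 3.06% of all genes. It was Mmp11, which was higher with anti-CSF1R. With a GC and length offset, a correction of each library for the GC content and length of transcripts, 0 of 41 passed, against 2.27% of all genes (edgeR, 12 with an unadjusted p under 0.05, against 20.7% of all genes). Differences are given as log2 fold changes (log2FC), anti-CSF1R minus isotype. The median log2FC of the tested members was 0.08, and that of all genes was 0.03. Scaling by total count alone moved the median of all genes by 0.16, and turned the sign of Adamts7 and Mmp28.

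A run of members sits side by side in the genome, with Mmp13 the abundant one, and upstream sequences of this run are shown because they hold the same short letters. In the RefSeq gene order, Mmp13, Mmp12, Mmp1b, Mmp3, Mmp1a, Mmp10, Mmp27, Mmp20 and Mmp7 lie in 1 run on chromosome 9, interrupted by Mmp8 and by no other protein-coding gene. The RefSeq promoter table (GRCm38.p6) held 32 of the 47 members, and the 250 bases before the start were searched on both strands. The AP-1 letters TGAGTCA or TGACTCA were found in 7 of the 9 cluster genes and in 0 of the other 23 members. They were found in 5.16% of all 27025 genes of the table, or 4.46% of its 32851 promoters. The bases just before the start are shown for 5 of the cluster genes and for Mmp14, with the AP-1 letters and, in Mmp13 and Mmp14, the Runx letters (TGTGGT or TGCGGT, or their reverse complement) in capitals. All 6 are on the plus strand.
Mmp13, chr9:7272384-7272513: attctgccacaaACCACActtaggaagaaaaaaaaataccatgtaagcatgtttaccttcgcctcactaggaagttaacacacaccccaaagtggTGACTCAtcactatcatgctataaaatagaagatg
Mmp1a, chr9:7464041-7464140: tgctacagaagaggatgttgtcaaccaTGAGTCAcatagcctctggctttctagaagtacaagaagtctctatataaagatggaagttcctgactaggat
Mmp3, chr9:7445722-7445821: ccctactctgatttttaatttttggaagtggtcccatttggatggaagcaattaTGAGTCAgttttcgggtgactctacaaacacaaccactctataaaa
Mmp10, chr9:7502242-7502341: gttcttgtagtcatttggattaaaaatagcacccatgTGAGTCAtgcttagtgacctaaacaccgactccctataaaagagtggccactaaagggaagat
Mmp12, chr9:7347274-7347373: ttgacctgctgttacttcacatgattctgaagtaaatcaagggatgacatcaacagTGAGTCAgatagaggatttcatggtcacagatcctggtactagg
Mmp14, chr14:54431468-54431597: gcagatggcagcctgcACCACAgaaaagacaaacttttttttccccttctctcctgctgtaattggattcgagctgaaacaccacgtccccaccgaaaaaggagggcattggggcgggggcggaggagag

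The AP-1 letters begin 35 bases before the start in Mmp13, 46 in Mmp3, 63 in Mmp10, 73 in Mmp1a and 44 in a second listed start of Mmp12. The Runx letters begin 118 bases before the start in Mmp13 and 114 in Mmp14. They were found in 9 of the 32 members, in 20.9% of all genes and in 18.6% of all promoters. A match is a run of letters, and binding was not measured here. Of the 5 cluster genes shown, Mmp13 was counted at 830 to 3295 CPM, while Mmp1a, Mmp3, Mmp10 and Mmp12 each stayed at or below 1.28 CPM in every library.

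Per kilobase of the longest transcript, 3 proteases made up nearly all RNA of the MMPs kept here. Mmp8, Mmp9 and Mmp25 were left out and are not in these sums. Mmp13, Mmp14 and Mmp2 together gave 91.4% to 95.9% of the summed MMP level per kilobase in each library. In the anti-CSF1R libraries Mmp13 stood at 1063 to 1233 CPM per kilobase, Mmp2 at 443 to 463 and Mmp14 at 371 to 424. These 3 ranges do not overlap. In isotype 5 Mmp14 was above Mmp2 (482 and 445 CPM per kilobase), so the order of that pair was not the same in every library. In isotype 3 and 4, Mmp13 was below both (434 and 311 CPM per kilobase). Timp1, Timp2 and Bsg came next in isotype 2 and 5 and in the anti-CSF1R libraries. In isotype 3 and 4, Timp1 (590 and 402 CPM per kilobase) and Bsg (508 and 329) also stood above Mmp13. In the anti-CSF1R libraries the ranges of Timp1 (199 to 234 CPM per kilobase) and Timp2 (205 to 230) overlapped. Of the ADAMTS proteases kept here, Adamts10 was the most abundant in every library, at 57.8 to 72.4 CPM per kilobase. It gave 36.2% to 59.7% of their sum, which leaves out Adamts2, Adamts3 and Adamts14.

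**Figure D1:**
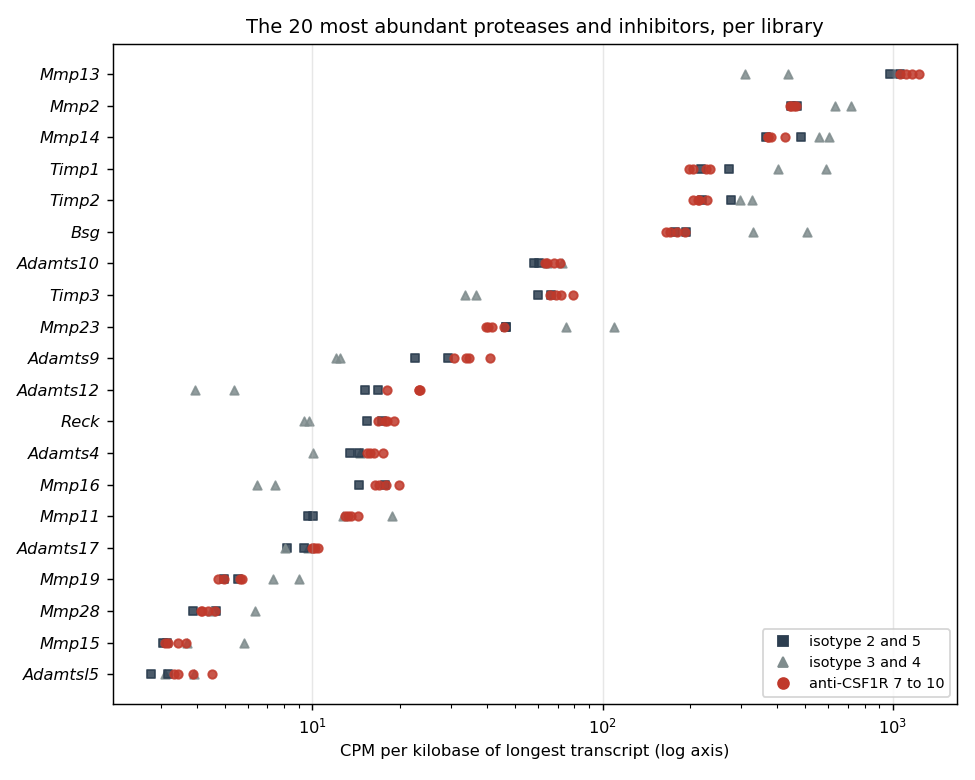
Level of the 20 most abundant members per library, in CPM per kilobase of the longest transcript on a log axis. Each point is 1 library. Mmp13 leads in 6 libraries, and isotype 3 and 4 (triangles) sit apart from the other isotype libraries in most rows.

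Mmp13, collagenase 3, cuts fibrillar collagen and is made by osteoblasts, osteocytes and hypertrophic chondrocytes. It measured 2624, 1161, 830 and 2840 CPM across isotype 2 to 5, and 2843, 2972, 3107 and 3295 CPM across anti-CSF1R 7 to 10. The groups did not overlap, but isotype 5 and anti-CSF1R 7 were nearly level, and the distance between the groups lay in isotype 3 and 4. Its log2FC was 0.71 ± 0.37 (SE), with an edgeR adjusted p of 0.290 and a single-gene 95% interval of -0.13 to 1.55. Against isotype 2 and 5 only it was 0.16 (edgeR adjusted p = 0.501), with an interval of -0.05 to 0.37. Of 8 chondrocyte markers, 7 lay on the lower side, the opposite of Mmp13, and 0 passed the threshold. The 8 markers summed to 4220 to 6329 CPM across isotype and 3092 to 4026 CPM across anti-CSF1R libraries. Their median log2FC was -1.08, and -1.52 without isotype 3 and 4. Of 10 osteoblast markers, 7 also lay on the lower side (median -0.23, and -0.03 without the pair). Of 6 osteocyte markers, 5 lay on the higher side, as Mmp13 did (median 0.19, and 0.07 without the pair). In these 2 lists 0 passed on all libraries. The part of these cells in the result was not tested. Of the other collagenases, Mmp1a stood at 0.182 to 0.777 CPM across isotype and 0.751 to 1.03 CPM across anti-CSF1R libraries (log2FC 0.91, edgeR adjusted p = 0.278, and 0.33 without isotype 3 and 4). Mmp1b had 1 count in all libraries together.

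Mmp2, gelatinase A, cuts gelatin and basement membrane collagen and is switched on at the cell surface by Mmp14 with the help of TIMP2. It measured 1438, 2214, 1940 and 1369 CPM across isotype 2 to 5, and 1409, 1364, 1426 and 1369 CPM across anti-CSF1R 7 to 10. The highest libraries were isotype 3 and 4, and the other 6 lay within 1364 to 1438 CPM whatever the antibody. The fitted log2FC was -0.32 on all libraries (edgeR adjusted p = 0.306). It was -0.01 without isotype 3 and 4, with an interval of -0.18 to 0.15, and 0.03 with the offset.

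Membrane-type MMPs are anchored at the cell surface. Mmp14, the collagenase whose loss in mice leaves severe skeletal defects, measured 1182, 1960, 1804 and 1561 CPM across isotype 2 to 5, and 1207, 1237, 1373 and 1201 CPM across anti-CSF1R 7 to 10. The groups overlapped, with isotype 2 the lowest of all libraries. On all libraries the log2FC was -0.37 (edgeR adjusted p = 0.285), and -0.13 without isotype 3 and 4 (interval -0.39 to 0.13). Osteoclast markers, of which 8 of 10 fell, summed to 3817 to 8258 CPM across isotype and 1218 to 1746 CPM across anti-CSF1R libraries. Osteoclasts also make Mmp14, and the part of fewer osteoclasts or less RNA per osteoclast, which bulk RNA cannot tell apart, was not tested.

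Mmp16 went the other way in isotype 3 and 4. It measured 89.4, 37.1, 32.2 and 72.6 CPM across isotype 2 to 5, and 82.1, 90.1, 84.9 and 99.7 CPM across anti-CSF1R 7 to 10, so the groups overlapped (log2FC 0.63, edgeR adjusted p = 0.286, and 0.14 without isotype 3 and 4). Mmp15, Mmp17 and Mmp24 were less abundant, with means of 5.82 to 20.1 CPM in either group. Mmp24, the most shifted of these 3, had a log2FC of -0.58 (edgeR adjusted p = 0.280), which became -0.03 without isotype 3 and 4.

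Mmp11, stromelysin 3, leaves the cell already active because furin removes its propeptide on the way out. It measured 22.1, 43.1, 29.1 and 23.0 CPM across isotype 2 to 5, and 30.3, 29.6, 31.1 and 32.9 CPM across anti-CSF1R 7 to 10. Isotype 3 was the highest of all libraries, and isotype 2 and 5 were the lowest. On all libraries the log2FC was 0.08 ± 0.22 (SE, edgeR adjusted p = 0.802). When isotype 2 and 5 alone were used, Mmp11 rose by 0.46 on the log2 scale, with an interval of 0.31 to 0.61 and an edgeR adjusted p of 0.00686. With the offset it was 0.51 and just short of the threshold (edgeR adjusted p = 0.0529). The call thus depends on leaving out isotype 3 and 4, and the adjusted p of 18 alternatives lay between 0.00686 and 0.943. The other stromelysins were scarce: Mmp3 stood at 0.764 to 1.28 CPM and Mmp10 at 0.149 to 0.777 CPM, with neither called (edgeR adjusted p = 0.508 and 0.303). Their log2FC values were 0.21 and -0.75, and 0.0065 and -0.77 without isotype 3 and 4.

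**Figure D2:**
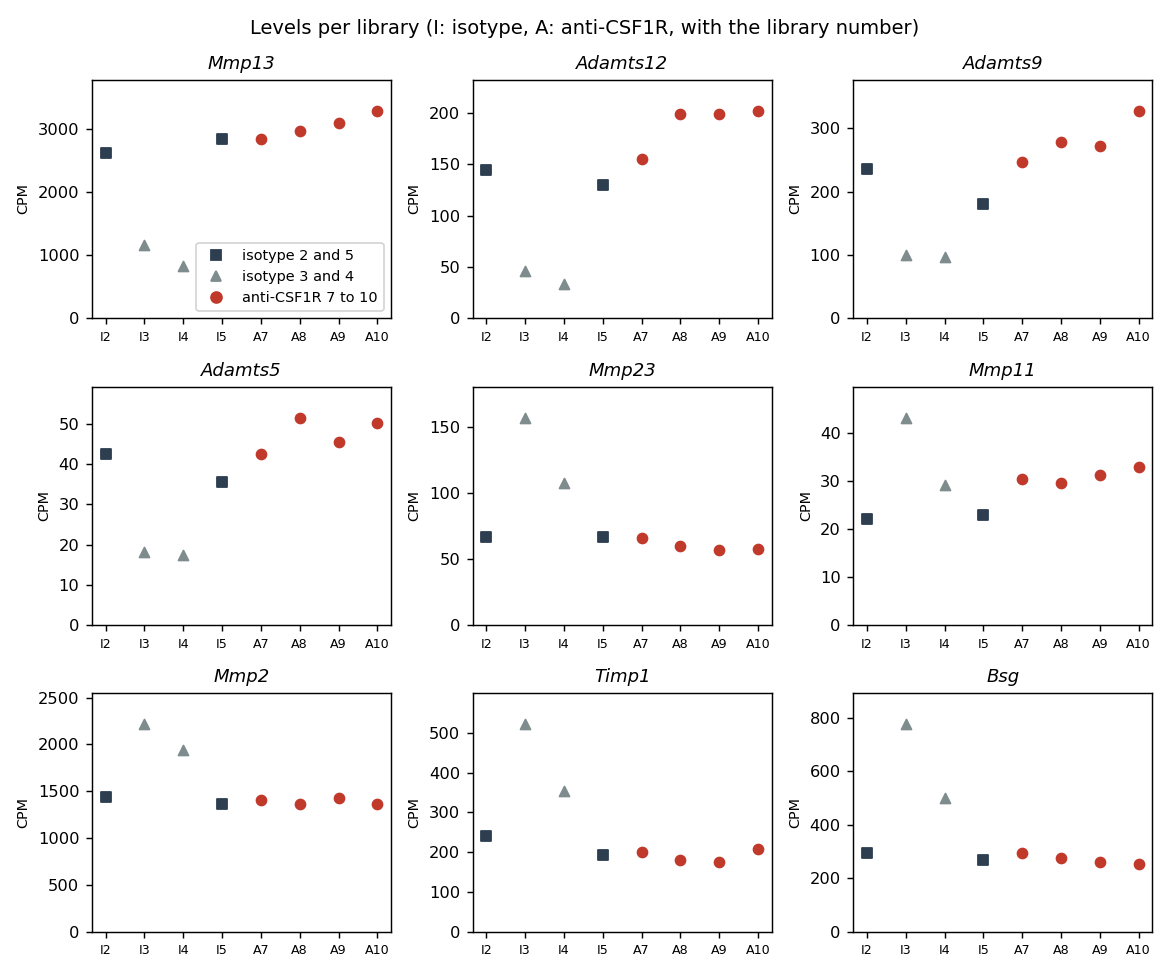
CPM per library, on axes that start at 0, for 9 members. In Mmp13, Adamts12, Adamts9 and Adamts5 isotype 3 and 4 (triangles) are the lowest libraries. In Mmp23, Mmp2, Timp1 and Bsg they are the highest, and in Mmp11 the 4 anti-CSF1R libraries lie above isotype 2 and 5 but not above isotype 3.

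Among the remaining MMPs, Mmp23, a small type II membrane protein of the family, was the abundant one. It measured 66.9, 157, 108 and 66.8 CPM across isotype 2 to 5, and 65.8, 59.8, 57.1 and 57.9 CPM across anti-CSF1R 7 to 10. The groups did not overlap, with anti-CSF1R 7 just under isotype 5. On all 8 libraries its log2FC was -0.73 (edgeR adjusted p = 0.278), and -0.16 without isotype 3 and 4 (edgeR adjusted p = 0.317). Mmp19, a secreted MMP of stromal and vascular cells, measured 16.8, 30.5, 24.98 and 18.8 CPM across isotype 2 to 5, and 19.2, 16.9, 16.1 and 19.4 CPM across anti-CSF1R 7 to 10, and the groups overlapped (edgeR adjusted p = 0.305). Its log2FC was -0.35, and 0.0039 without isotype 3 and 4. Mmp28, epilysin, stood at 13.3 to 21.8 CPM over all libraries (log2FC -0.16, edgeR adjusted p = 0.508, and 0.02 without isotype 3 and 4).

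Mmp12, the macrophage elastase, was close to the detection floor in both groups, at 0.0660 to 0.223 CPM across isotype and 0.113 to 0.264 CPM across anti-CSF1R libraries (edgeR adjusted p = 0.656). Macrophage markers, of which 8 of 10 fell, summed to 441 to 950 CPM across isotype and 73.3 to 131 CPM across anti-CSF1R libraries. Their median log2FC was -2.69. Mmp12 had 4 to 20 counts per library and a log2FC of 0.30 (interval -0.78 to 1.37), and -0.06 without isotype 3 and 4. The part of macrophages in its level was not tested. Of the 6 members with too few counts to test, Mmp27 had 70 counts over all libraries, Mmp20, the enamel protease, 20, Adamts19 14, Mmp21 11, Mmp7 4 and Mmp1b 1.

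Of the proteoglycan-cleaving ADAMTS proteases, Adamts9, Adamts4 and Adamts5 were highest in the anti-CSF1R libraries without passing the test. Adamts9, which cuts versican and aggrecan, measured 235, 99.95, 96.8 and 180 CPM across isotype 2 to 5, and 246, 278, 272 and 327 CPM across anti-CSF1R 7 to 10. Isotype 2 reached nearly to anti-CSF1R 7, and the groups did not overlap. The log2FC was 0.88 ± 0.29 (SE, edgeR adjusted p = 0.257). Without isotype 3 and 4 it was 0.43 (edgeR adjusted p = 0.160), with an interval of 0.12 to 0.74. Adamts5, the main aggrecanase of mouse cartilage, measured 42.5, 18.2, 17.3 and 35.7 CPM across isotype 2 to 5, and 42.6, 51.6, 45.6 and 50.4 CPM across anti-CSF1R 7 to 10. Isotype 2 and anti-CSF1R 7 differed by less than the spread within either group. Its log2FC was 0.74 (edgeR adjusted p = 0.278), and 0.28 without isotype 3 and 4 (edgeR adjusted p = 0.192).

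Adamts4, another aggrecanase, was less affected by the libraries that stood apart. It measured 58.9, 44.2, 64.1 and 63.4 CPM across isotype 2 to 5, and 67.5, 69.5, 71.6 and 77.0 CPM across anti-CSF1R 7 to 10, with no overlap. The fitted log2FC was 0.31 on all libraries and 0.22 without isotype 3 and 4 (edgeR adjusted p = 0.285 and 0.138). Adamts1, an early-response member, stood at 7.03 to 18.1 CPM across isotype and 17.2 to 19.2 CPM across anti-CSF1R libraries. Adamts15 stood at 7.18 to 14.0 CPM, Adamts8 at 1.10 to 1.95 CPM and Adamts20 at 0.0991 to 0.693 CPM over all libraries, and the groups overlapped in all 3.

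Adamts12, which like Adamts7 can cut cartilage oligomeric matrix protein (COMP), had the largest positive log2FC of the tested members. It measured 144, 46.1, 33.8 and 130 CPM across isotype 2 to 5, and 156, 199, 200 and 202 CPM across anti-CSF1R 7 to 10. Both libraries that stood apart, isotype 3 and 4, were far below the rest, and anti-CSF1R 7 was close to isotype 2. On all libraries the log2FC was 1.10 ± 0.44 (SE, edgeR adjusted p = 0.278). Without isotype 3 and 4 it was 0.46, with an interval of 0.21 to 0.71 and an edgeR adjusted p of 0.0639. Adamts7 measured 17.2, 23.1, 20.6 and 16.9 CPM across isotype 2 to 5, and 18.3, 16.8, 19.5 and 18.2 CPM across anti-CSF1R 7 to 10, with overlapping groups (log2FC -0.10, edgeR adjusted p = 0.647, and 0.09 without isotype 3 and 4).

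The ADAMTS proteases tied to fibrillin microfibrils, Adamts6, Adamts10 and Adamts17, held narrow ranges outside isotype 3 and 4. Their highest value there was 1.20, 1.24 and 1.28 times the lowest. Within these ranges every anti-CSF1R library lay above isotype 2 and 5, a separation seen in 24% of all genes. Without isotype 3 and 4 the single-gene intervals were 0.02 to 0.34 for Adamts10 and 0.07 to 0.36 for Adamts17, and neither passed after adjustment. Adamts10 measured 238, 298, 266 and 248 CPM across isotype 2 to 5, and 281, 266, 295 and 260 CPM across anti-CSF1R 7 to 10 (log2FC 0.07, edgeR adjusted p = 0.725, and 0.18 without isotype 3 and 4, adjusted p = 0.279). Adamts17 measured 52.4, 51.8, 62.0 and 59.8 CPM across isotype 2 to 5, and 63.8, 64.4, 67.1 and 65.3 CPM across anti-CSF1R 7 to 10. Its groups did not overlap, and its log2FC was 0.21 both on all libraries and without isotype 3 and 4 (edgeR adjusted p = 0.313 and 0.139).

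Adamts6 measured 23.2, 9.20, 6.21 and 22.4 CPM across isotype 2 to 5, and 25.3, 23.9, 25.4 and 26.8 CPM across anti-CSF1R 7 to 10. The lowest were isotype 3 and 4, and isotype 2 was nearly level with anti-CSF1R 8 (log2FC 0.73, and 0.15 without isotype 3 and 4, edgeR adjusted p = 0.292 and 0.347). Adamts18 measured 10.5, 6.26, 7.89 and 13.6 CPM across isotype 2 to 5, and 9.12, 10.7, 11.3 and 10.9 CPM across anti-CSF1R 7 to 10, and the groups overlapped (log2FC 0.14, and -0.20 without isotype 3 and 4, edgeR adjusted p = 0.688 and 0.539). Adamts13, the protease of von Willebrand factor, was scarce at 0.255 to 0.764 CPM across isotype and 0.101 to 0.227 CPM across anti-CSF1R libraries. Its groups did not overlap (log2FC -1.44 ± 0.44, SE, edgeR adjusted p = 0.215), and it had 145 counts over all libraries. With isotype 3 and 4 left out, the log2FC was -0.997 (edgeR adjusted p = 0.373).

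In the ADAMTS-like genes, whose proteins bind matrix and cut nothing, no groups separated. Adamtsl1 measured 19.9, 13.7, 19 and 22.7 CPM across isotype 2 to 5, and 25.7, 24.4, 26.3 and 19.7 CPM across anti-CSF1R 7 to 10 (log2FC 0.35, edgeR adjusted p = 0.290, and 0.17 without isotype 3 and 4). Adamtsl5 measured 11.4, 16.1, 12.7 and 13.0 CPM across isotype 2 to 5, and 13.7, 14.2, 16.0 and 18.6 CPM across anti-CSF1R 7 to 10 (log2FC 0.23, edgeR adjusted p = 0.355, and 0.35 without isotype 3 and 4). Adamtsl2, Adamtsl3 and Adamtsl4 had means of 2.21 to 8.87 CPM in either group, and the smallest adjusted p of the 3 was that of Adamtsl3 (edgeR adjusted p = 0.278, log2FC 0.59, and 0.29 without isotype 3 and 4).

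The inhibitors did not share 1 pattern over the libraries. Timp2, which both blocks MMPs and takes part in the activation of Mmp2, measured 816, 1216, 1108 and 1028 CPM across isotype 2 to 5, and 796, 760, 851 and 794 CPM across anti-CSF1R 7 to 10. Isotype 2 lay within the anti-CSF1R range and the other isotype libraries above it (log2FC -0.38, edgeR adjusted p = 0.278). Without isotype 3 and 4 it was -0.21 (edgeR adjusted p = 0.372). Timp3, which binds to the matrix and also inhibits ADAMTS proteases, measured 283, 159, 173 and 313 CPM across isotype 2 to 5, and 312, 327, 338 and 373 CPM across anti-CSF1R 7 to 10. Its log2FC was 0.54, and 0.18 without isotype 3 and 4 (edgeR adjusted p = 0.278 and 0.375). In Timp3, isotype 3 and 4 were the lowest libraries, the opposite of Timp2.

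Timp1, a soluble inhibitor of most MMPs that is induced in inflammation, measured 241, 521, 355 and 193 CPM across isotype 2 to 5, and 199.99, 181, 176 and 207 CPM across anti-CSF1R 7 to 10. The highest were isotype 3 and 4, and isotype 5 lay within the anti-CSF1R range. On all 8 libraries its log2FC was -0.78 (edgeR adjusted p = 0.278), the most negative of the members with a mean of at least 2 CPM, and -0.19 without isotype 3 and 4 (edgeR adjusted p = 0.440). Timp4 did not exceed 0.267 CPM in any library. The summed TIMP level per kilobase was 0.290, 0.494, 0.457 and 0.270 times the summed MMP level in isotype 2 to 5 and 0.255, 0.237, 0.234 and 0.246 times in anti-CSF1R 7 to 10. The ratio was lowest in the anti-CSF1R libraries, close to that of isotype 5, and it is given as a description. The MMP sum leaves out Mmp8, Mmp9 and Mmp25, so the ratio to all MMPs is not known from it.

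Bsg, the gene of basigin (EMMPRIN), a surface glycoprotein known for inducing MMPs in neighbouring fibroblasts, measured 296, 776, 502 and 270 CPM across isotype 2 to 5, and 294, 275, 260 and 253 CPM across anti-CSF1R 7 to 10. The log2FC was -0.77 (edgeR adjusted p = 0.278), and -0.07 without isotype 3 and 4 (interval -0.25 to 0.11). Reck, a membrane-anchored inhibitor of MMPs, measured 79.3, 42.5, 44.2 and 70.3 CPM across isotype 2 to 5, and 82.2, 76.4, 80.9 and 87.2 CPM across anti-CSF1R 7 to 10. Its log2FC was 0.47 (edgeR adjusted p = 0.280), and 0.12 without isotype 3 and 4. Isotype 3 and 4 were the highest for Bsg and the lowest for Reck.

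Between the groups, 9 of the 41 tested members did not overlap (22%, against 15% of all genes tested). Against isotype 2 and 5 only it was 13 of 42, against 24% of all genes. The 7 with higher anti-CSF1R values were Mmp13, Adamts4, Adamts5, Adamts6, Adamts9, Adamts12 and Adamts17, and the 2 with lower values were Mmp23 and Adamts13. Of all genes, 6.61% were separated with higher and 8.34% with lower anti-CSF1R values. Isotype 3 and 4 were the 2 lowest of all libraries for 15 members, with a transcript GC content of 41.6% to 53.3%. They were the 2 highest for 14 members, with a GC content of 49.0% to 60.1%. Across the 41 tested members, the Spearman correlation of GC content with the log2 ratio of isotype 3 and 4 to isotype 2 and 5 was 0.654. Across 16202 genes it was 0.684. The points share the same 4 libraries and their depth.

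**Figure D3:**
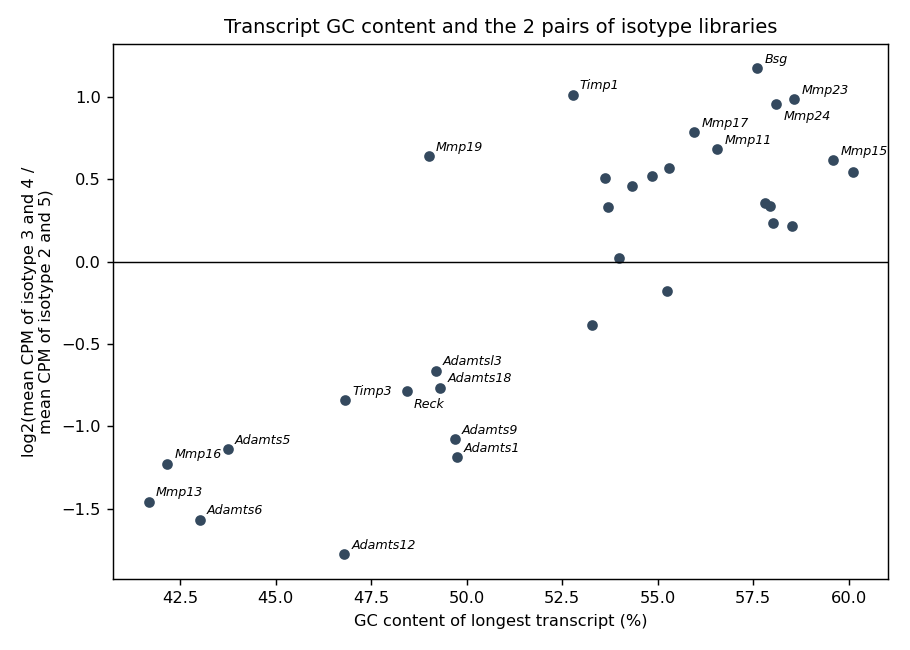
Each point is 1 of the 32 tested members with a mean of at least 2 CPM. The x axis is the GC content of its longest transcript, and the y axis is the log2 ratio of its mean CPM in isotype 3 and 4 to that in isotype 2 and 5. Members of low GC content such as Mmp13 lie below 0, and members of high GC content such as Bsg lie above it.

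Without isotype 3 and 4 the fold changes were smaller for most members. For 33 of the 41 the log2FC was closer to 0 without isotype 3 and 4, and the median of its size went from 0.38 to 0.18. The same was seen over all genes, of which 79.3% came closer to 0, with medians of 0.39 and 0.11. Among the 32 members with a mean of at least 2 CPM, no log2FC exceeded 0.46 in size without isotype 3 and 4. The sign turned in 10 members, among them Mmp15, Mmp17, Mmp19, Mmp28, Adamts7 and Adamts18. The 2 fits share the anti-CSF1R libraries and isotype 2 and 5.

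**Figure D4:**
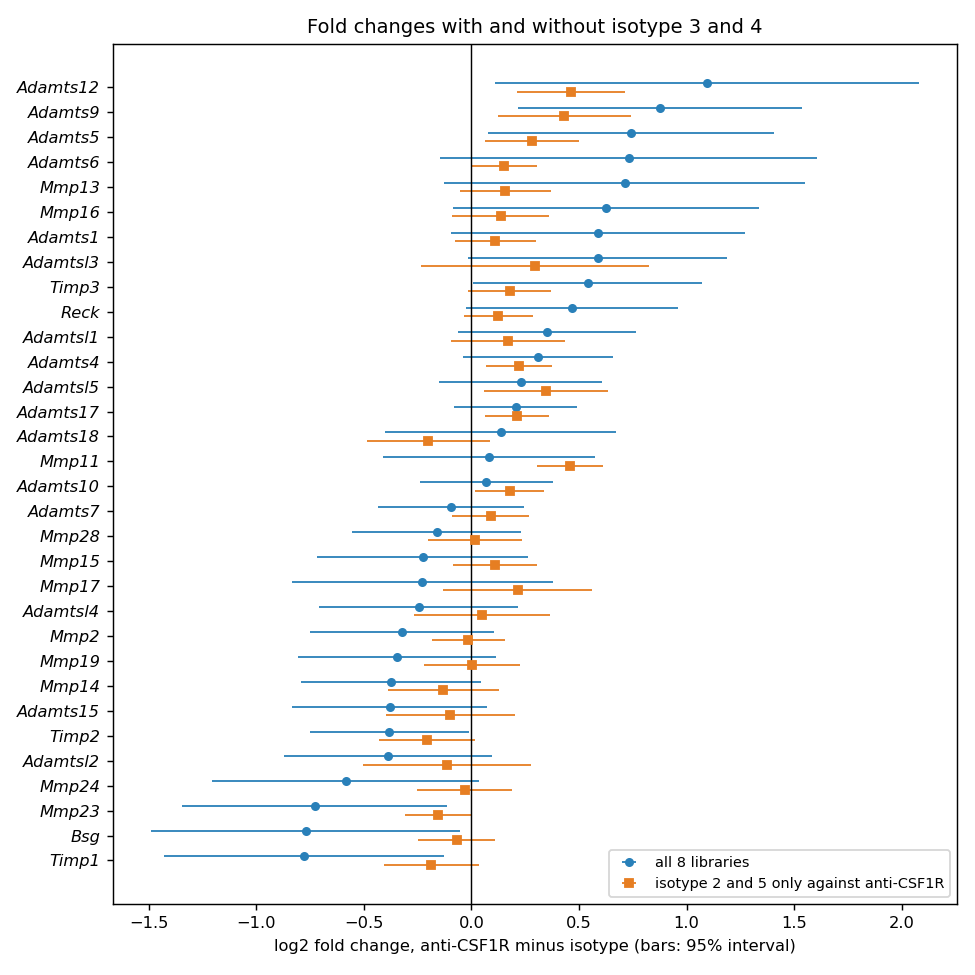
Log2FC, anti-CSF1R minus isotype, of the 32 members with a mean of at least 2 CPM, on all 8 libraries (circles) and without isotype 3 and 4 (squares). Bars are single-gene 95% intervals from edgeR, not adjusted for the number of genes. The squares lie nearer to 0 in most rows, and Mmp11 is the member that passed after adjustment, at 0.46 without isotype 3 and 4.

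Genes that act with these proteases were read from the same fit. Of 15 tested genes of proenzyme activation and pericellular proteolysis, 0 passed in either direction (edgeR, 2 with an unadjusted p under 0.05, median log2FC -0.30). Htra1 and Htra3, secreted serine proteases, had log2FC values of -0.64 and -0.50 (edgeR adjusted p = 0.275 and 0.277), and -0.31 and -0.19 without isotype 3 and 4. Fap, a serine protease of activated fibroblasts, averaged 411 CPM in the isotype group and 723 CPM after the blocking antibody (edgeR adjusted p = 0.278). Its log2FC was 0.82, and 0.26 without isotype 3 and 4. The 2 most abundant, the inhibitor Serpine2 and the procollagen C-proteinase Bmp1, stood at 1455 and 1147 CPM for isotype and 1180 and 1022 CPM with anti-CSF1R. Their log2FC values of -0.30 and -0.17 became 0.07 and 0.18 without isotype 3 and 4.

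Of 7 clearance and collagen receptors 0 passed (edgeR, 0 with an unadjusted p under 0.05, median 0.12). Ddr2, a collagen receptor kinase, had a log2FC of 0.67, A2m, a circulating protease trap, -0.88 and Cav1 0.47 (edgeR adjusted p = 0.289, 0.310 and 0.371). These were 0.15, -1.16 and -0.09 without isotype 3 and 4, the last of opposite sign. Lrp1, which clears protease complexes, and Mrc2, which takes up collagen fragments, had log2FC values of 0.18 and -0.12, and 0.27 and 0.19 without isotype 3 and 4. Of 8 tested ADAM sheddases 0 passed (edgeR, 1 with an unadjusted p under 0.05, median 0.29). Adam12, Adam10 and Adam15 had log2FC values of 0.60, 0.72 and -0.33 (edgeR adjusted p = 0.278, 0.295 and 0.335). The values were 0.26, 0.14 and 0.09 without isotype 3 and 4, and Adam15 turned its sign.

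Of 9 AP-1 and Runx factors, 1 fell and 0 rose. Fosl2, an AP-1 subunit known for roles in osteoblasts and osteoclasts, measured 128, 118, 161 and 127 CPM across isotype 2 to 5, and 72.8, 72.1, 73.8 and 75.2 CPM across anti-CSF1R 7 to 10. Every anti-CSF1R library lay below every isotype library, and isotype 3 and 4 were the lowest and the highest of their group. Fosl2 fell by 0.86 ± 0.14 (SE) on the log2 scale (edgeR adjusted p = 0.0307), by 0.79 without isotype 3 and 4 (edgeR adjusted p = 1.81e-04) and by 0.81 with the offset (0.00365). The call was lost without isotype 4 (log2FC -0.77, edgeR adjusted p = 0.0776) and without anti-CSF1R 7, 8, 9 or 10 (-0.87 to -0.85, edgeR adjusted p = 0.134 to 0.138). It was also lost with total count alone (-0.70, edgeR adjusted p = 0.0853) and with the muscle score as covariate (-0.97, 0.0970), so that the log2FC stayed between -0.97 and -0.70 in these fits. Runx2, the osteoblast master regulator, measured 312, 163, 168 and 320 CPM across isotype 2 to 5, and 345, 333, 378 and 390 CPM across anti-CSF1R 7 to 10, and Jund had a log2FC of -0.68 (edgeR adjusted p = 0.278 for both). Leaving out isotype 3 and 4 took the log2FC of Runx2 from 0.59 to 0.19 and that of Jund to -0.14.

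Of 9 tested substrates 0 passed on all libraries (edgeR, 3 with an unadjusted p under 0.05, median 0.06). With isotype 2 and 5 only, Vcan and Fbn1 were higher, by 0.46 and 0.28 on the log2 scale (edgeR adjusted p = 0.0306 and 0.0307). Vcan, the gene of versican, measured 316, 108, 70.9 and 261 CPM across isotype 2 to 5, and 378, 391.97, 386 and 438 CPM across anti-CSF1R 7 to 10 (log2FC 1.07, edgeR adjusted p = 0.278 on all libraries). Comp and Acan, both cartilage genes, had log2FC values of -1.46 and -1.53 (edgeR adjusted p = 0.153 and 0.212). DESeq2 called both (adjusted p = 0.00430 and 0.0148), and edgeR called Comp without isotype 2 (adjusted p = 0.0420). Their log2FC values were -1.65 and -1.80 without isotype 3 and 4. Isotype 5 held the highest Acan level, and without it the log2FC of Acan was -0.95 and that of Comp -1.01 (edgeR adjusted p = 0.103 and 0.0950). Spp1 and Eln, the most abundant substrates, had log2FC values of 0.73 and 0.0040 (edgeR adjusted p = 0.293 and 0.989), and 0.16 and 0.35 without isotype 3 and 4.

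Endothelial and muscle markers also differed between libraries. Of 6 endothelial markers, 5 were higher in every anti-CSF1R library than in any isotype library, against 6.61% of all genes tested, and 0 passed on all libraries. With isotype 2 and 5 only, 1 passed as higher, against 3.06% of all genes called in either direction. The median log2FC of the 6 was 0.43, and 0.28 without isotype 3 and 4. The sum of the 6 was 497 to 535 CPM across isotype and 599 to 687 CPM across anti-CSF1R libraries. The 10 skeletal muscle markers summed to 30.2, 76.9, 10.6 and 8.62 CPM in isotype 2 to 5 and to 9.11 to 9.76 CPM with anti-CSF1R. No listed marker was at 0 in every library, and the part of these cells in the protease levels was not tested. In GENCODE M21, exons of Timp3, Mmp19, Mmp24, Mmp28, Adamts4, Adamts7, Adamts9 and Mmp11, among others, overlap a gene on the opposite strand, by at most 1733 bases in Timp3. The strand setting of the counting was not given in the sources used here. Without strand, reads of the overlapped stretches cannot be told apart between partners.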

How the data were processed

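The authors deposited 1 table of raw counts per gene symbol for 8 poly(A) RNA libraries. The kit was stranded, with an input of 1 µg of RNA, and read pairs of 101 bp were sequenced to 6 Gb, per the labels' protocols. The submitters' processing notes list STAR 2.7.10b, featureCounts 1.6.3 and 2 builds (GRCm38, GRCm39), and the annotation and strand setting were not given in the sources used here. Of counts from 1 to 10, 82.8% to 84.7% were even, as arises when both mates are counted. Pairs of libraries of a group differed by at least 8.61 times counting noise, so none was a copy.

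The whole table was fitted with edgeR 4.0.16 in R 4.3.3 (filterByExpr, TMM, robust quasi-likelihood F-test, Benjamini-Hochberg over 17028 genes, threshold 0.05). Intervals are at 95% for each gene. DESeq2 1.42.0, limma-voom (limma 3.58.1) and 16 other alternatives were run. The offset used natural splines (5 degrees of freedom) on the GC content and the log2 length of each gene's longest transcript in GENCODE M21, which 95.2% of tested genes and all 47 members had. The test was checked on simulated data. It recovered 85.4% of 96 simulated 4-fold changes but only 20.6% of 97 simulated 2-fold changes, with 2 false calls among 104. The lack of a call therefore does not show the lack of a 2-fold change. Replicate numbers come from the titles.

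The members and gene lists were chosen with earlier results of these data known. Values in every library are given for members with a mean of at least 2 CPM that passed in 1 of 3 fits (all libraries, isotype 2 and 5 only, offset), did not overlap between the groups, or were among the 2 most abundant of their role. Timp1 was added after its values were seen. For each list of partner genes, up to 3 with the smallest p and the 2 most abundant are named, and Fbn1, which passed in 1 alternative, was added after its values were seen.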

Additional observations from a re-analysis of the deposited data

Results flagged for a closer look

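In Adamts12, anti-CSF1R 7 stood apart from its group, at 156 CPM against 199 to 202 CPM in the other 3 libraries. Its gap to the nearest of them was 0.941 of the range of the group, above Dixon's critical value for 4 values. Of 82 groups of 4 values examined (41 members in 2 antibody groups) this was the 1 that stood out, and chance alone would mark about 1 in 20.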

How the results depend on the processing

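No paired analysis was possible because the isotype and anti-CSF1R libraries share no number. On all 8 libraries edgeR called 0 members, and 17 of 18 alternatives also called 0. The exception was isotype 2 and 5 only, with 1 member (Mmp11, 0.46). Leaving out 1 library at a time called 0 members each time. The number of all genes called was 144, and it depended on the fit: 777 with DESeq2, 536 with isotype 2 and 5 only, 386 with the GC and length offset and 4 with the muscle score as covariate (edgeR, 994 with an unadjusted p under 0.05). Leaving out 1 library called 0 to 260 genes: 0 without anti-CSF1R 7 or 8 (edgeR, 1903 and 1597 with an unadjusted p under 0.05), 4 without 9, 14 without 10, 35 without isotype 4, 234 without isotype 5 and 260 without isotype 2. The cause was not tested. Non-overlapping members numbered 9, 10 with total count alone and 13 of 42 with isotype 2 and 5 only (24% of all genes). Over 727 values of single members under the alternatives, 726 kept their side of the threshold. As the main fit called 0 members, this means only that they stayed uncalled, and fits that called 0 or 4 of all genes could hardly show otherwise. Depth limits Mmp12, Timp4, Adamts13, Adamts16, Adamts20, Mmp10 and the 6 untested members.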

Other observations

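Outside isotype 3 and 4, many of the genes kept here held to narrow ranges. Over those 6 libraries the highest value of Mmp2 was 1.05 times the lowest, that of Mmp24 1.13 times, Adamts7 1.16 times, Bsg and Mmp23 1.17 times and Mmp13 1.26 times. The widest ranges among members with a mean of at least 2 CPM were those of Adamts9 (1.82 times), Adamtsl3 (1.78), Adamtsl5 (1.63) and Adamts12 (1.56). Over all 8 libraries the ratio was 5.98 for Adamts12, 4.32 for Adamts6 and 3.97 for Mmp13, and 1.25 for Adamts10, the narrowest of these members.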
